A study of Mus musculus with 6 samples.

Results

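The 7 cyclin-dependent kinase (CDK) inhibitor genes Cdkn1a, Cdkn1b, Cdkn1c, Cdkn2a, Cdkn2b, Cdkn2c and Cdkn2d, were followed in cultured mouse embryonic cardiomyocytes after knockdown of the DNA methyltransferase DNMT1. The genes were taken by name as the 7 CDK inhibitors of the Cip/Kip and INK4 families among 43629 Ensembl genes in the count files, and all 7 passed the filter on low counts that left 15470 genes to be tested. The cells came from ventricles of CD-1 embryos at embryonic day 13.5, pooled by litter, and were enriched by differential attachment. Every culture received 12 nM siRNA by lipid transfection, either a negative control siRNA (n = 3) or a pool of 4 siRNAs against DNMT1 (n = 3), and was collected after 72 h, when VCAM1-positive cells were sorted with magnetic beads and their polyadenylated RNA was sequenced. The sources used here do not say whether the 3 cultures of a treatment came from separate litters, so the p-values measure the spread between these cultures, which may be technical.

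CDK inhibitors are small proteins that hold back the cell cycle. The Cip/Kip members p21 (Cdkn1a), p27 (Cdkn1b) and p57 (Cdkn1c) bind cyclin-CDK complexes and block the kinases that act with cyclins E and A. The INK4 members p15Ink4b (Cdkn2b), p16Ink4a (Cdkn2a), p18Ink4c (Cdkn2c) and p19Ink4d (Cdkn2d) bind CDK4 and CDK6 and keep them from D cyclins, so that the retinoblastoma protein stays active and E2F targets stay off. In the embryonic heart these proteins are known for their part in the withdrawal of cardiomyocytes from the cell cycle. DNMT1 copies methylation at CG dinucleotides to the new DNA strand when a cell divides, and Cdkn1c lies in an imprinted domain in which the allele-specific silencing depends on DNA methylation.

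The promoter sequences of the members with the highest level and with the one change past the FDR limit are shown first, because CG dinucleotides are the substrate of DNMT1. In the table of promoters (RefSeq, GRCm38.p6), 6 of the 7 members had 9 starts. Cdkn1c had no entry, so the CG and motif counts below do not cover it. Each line gives the 250 bases before a start, 5′ to 3′ on the strand of the gene, with each CG in capitals. In the first line the 2 CATG blocks of the motif CATGNNNNNNCATG are also in capitals, which holds the cores of paired p53 binding sites.
Cdkn1a, upstream start (chr17:29090729-29090978, + strand): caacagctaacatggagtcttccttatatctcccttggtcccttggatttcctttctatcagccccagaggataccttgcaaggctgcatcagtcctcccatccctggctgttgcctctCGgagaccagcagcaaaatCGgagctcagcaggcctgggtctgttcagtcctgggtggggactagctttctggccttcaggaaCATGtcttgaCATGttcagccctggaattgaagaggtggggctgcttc
Cdkn1a, downstream start (chr17:29093519-29093768, + strand): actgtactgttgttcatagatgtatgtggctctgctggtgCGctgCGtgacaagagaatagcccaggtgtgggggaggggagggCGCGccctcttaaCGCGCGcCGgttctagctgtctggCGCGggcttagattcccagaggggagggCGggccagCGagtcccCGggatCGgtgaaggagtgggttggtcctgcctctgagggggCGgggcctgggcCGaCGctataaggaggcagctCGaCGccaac
Cdkn1b (chr6:134920151-134920400, + strand): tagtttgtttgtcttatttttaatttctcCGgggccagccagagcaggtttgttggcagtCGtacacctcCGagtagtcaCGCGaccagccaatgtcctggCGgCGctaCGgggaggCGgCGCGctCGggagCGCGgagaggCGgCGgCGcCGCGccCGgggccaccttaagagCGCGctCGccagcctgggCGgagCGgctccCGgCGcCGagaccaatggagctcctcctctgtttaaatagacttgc
The upstream Cdkn1a sequence held 2 CG, fewer than the median of 6 over 32841 mouse promoters of the same length, and the downstream Cdkn1a sequence held 19. The Cdkn1b sequence held 28 CG, and 92.4% of all promoters held fewer. The remaining promoters ranged from 6 CG at one Cdkn2c start to 40 CG at the upstream Cdkn2a start, which begins the p19Arf transcript, while the downstream start of Cdkn2a, which begins p16Ink4a, held 7. The paired CATG motif was present in 1 of the 9 member promoters, the upstream one of Cdkn1a, and in 0.490% of all promoters; it reads the same on both strands. The GC box GGGCGG, searched on both strands, was present in 5 of the 9, among them the downstream Cdkn1a start and Cdkn1b, and in 32.8% of all promoters. These matches describe letters in the windows, and no methylation was measured in the counts. The paper measured promoter methylation separately and lists Cdkn1a and Cdkn1c, but not Cdkn1b, among the genes with a decrease.

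Dnmt1 itself, as a check of the labels, was at 159, 127 and 133 CPM (counts scaled to library size) in negative siRNA replicates 1, 2 and 3 and at 35.6, 36.2 and 30.7 CPM with DNMT1 siRNA. A treatment tag of the DNMT1 siRNA libraries names DNMT3a, whereas their titles name DNMT1, and the titles were followed. The negative siRNA libraries held 27852412 to 35896018 counts on genes and the DNMT1 siRNA libraries 13739561 to 16186310. Negative siRNA replicate 2 stood apart from the other controls on the second principal component of all genes. The summed level of 8 cardiomyocyte markers was 411 to 529 CPM per kilobase of exon with negative siRNA and 710 to 872 with DNMT1 siRNA, and 5 of the 8 markers were called higher. The summed level of 8 fibroblast markers was larger in every library, 4601 to 7000 against 3478 to 3689 CPM per kilobase, and 3 of the 8 were called lower. Most of this sum was Col1a1, a collagen gene, at 3005 to 4587 CPM per kilobase with negative siRNA and 2191 to 2285 with DNMT1 siRNA. Of the 8 log2 fold changes 7 were negative, and Tcf21 stood at 0.0052. Of the 6 smooth muscle and pericyte markers 1 was called lower, and their summed level was 2378 to 3616 against 2019 to 2110 CPM per kilobase. Negative siRNA replicate 2 had the highest sum of both of these lists. Among the controls it also had the highest sums of the cardiomyocyte and endothelial markers, but not of the macrophage or epicardial markers. The summed levels of 6 endothelial markers (56.0 to 93.4 against 89.0 to 104 CPM), 6 macrophage markers (14.5 to 36.2 against 12.2 to 17.4 CPM) and 6 epicardial markers (1569 to 1832 against 1755 to 1841 CPM) overlapped between treatments, with 2 called higher, 1 called lower and 1 called lower. No marker was at 0 in all libraries. The paper cites earlier flow cytometry in which the large majority of cells sorted in this way were cardiomyocytes. By staining of cultures at the same dose and time, it reports an unchanged percentage of cardiomyocytes, fewer cells and larger cardiomyocytes. In sorted cells measured in bulk, fewer cells of a type and less RNA per cell cannot be told apart, and the part of cell makeup in the results below was not tested.

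All 7 CDK inhibitors were expressed. In edgeR's quasi-likelihood test, none passed both limits of the study, 0.05 for the FDR and 1.5 for the fold change in either direction. DESeq2 and edgeR's exact test called Cdkn1c lower, as given below, and the paper, which used DESeq2 and edgeR, reports Cdkn1c as decreased. In the quasi-likelihood test, adjusted by Benjamini-Hochberg across the genes tested, 4.26% of the genes were called higher and 2.23% lower under these limits. Of the 7 members, 2 had an unadjusted p below 0.05, Cdkn1b and Cdkn1c, against 29.2% of all genes. At an FDR below 0.05 without the fold limit there was 1 member, Cdkn1b, which fell, against 5.65% of all genes that fell and 6.81% that rose at that limit. In 2 members, again Cdkn1b and Cdkn1c, all 3 DNMT1 siRNA cultures lay below all 3 negative siRNA cultures, as they did for 17.7% of all genes. No member lay above the controls in all cultures, as 18.3% of all genes did. The log2 fold change (DNMT1 siRNA over negative siRNA) was positive for 1 member and negative for 6, with a median of -0.10 beside -0.0049 over all genes. The members had 160 to 11345 counts per library.

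**Figure D1:**
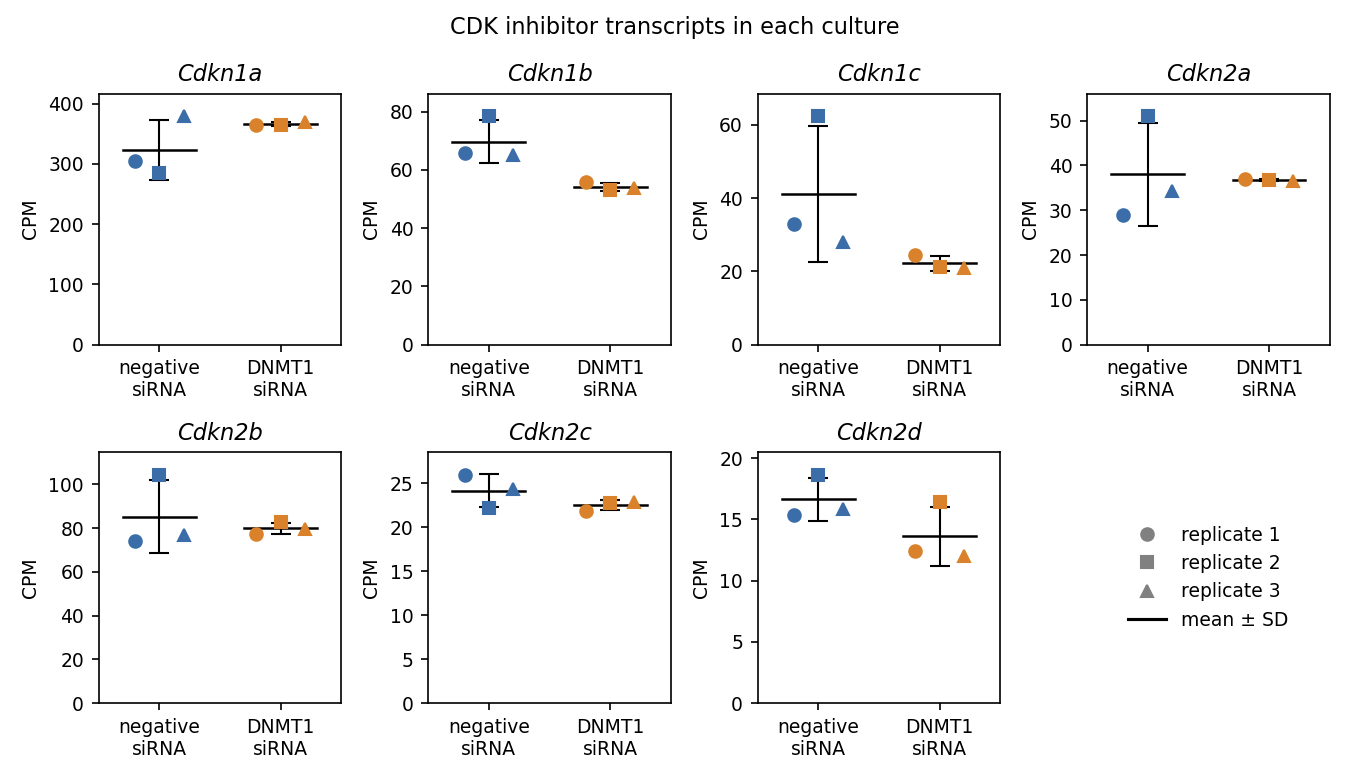
CPM (vertical axes, from 0) of each of the 7 CDK inhibitor genes by treatment, with 1 point per culture, its shape giving the replicate number, and the mean ± SD (n = 3) as a bar with whiskers. Cdkn1b and Cdkn1c were lower in all 3 DNMT1 siRNA cultures, and the controls of Cdkn1a, Cdkn1c, Cdkn2a and Cdkn2b were spread more widely than the DNMT1 siRNA cultures.

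Cdkn1a encodes p21, the inhibitor that p53 induces after DNA damage (ENSMUSG00000023067, GRCm38 chromosome 17, 29090976 to 29100727). It was at 305, 284 and 379 CPM in negative siRNA replicates 1, 2 and 3 and at 364, 364 and 370 CPM in the DNMT1 siRNA cultures. The groups overlapped, since negative siRNA replicate 3 lay above all DNMT1 siRNA cultures and the other controls below them. The log2 fold change was 0.18 (SE 0.11, 95% interval -0.06 to 0.42, FDR = 0.294, edgeR quasi-likelihood test). Without negative siRNA replicate 3 it was 0.31 with FDR = 0.0260, below the fold limit. In the newer GENCODE annotation, 7.68% of its exon bases overlap a predicted gene on the other strand that is absent from the files.

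Cdkn1b encodes p27, which binds CDK2 with its cyclins and marks cells that leave the cycle (ENSMUSG00000003031, chromosome 6, 134920401 to 134925513). Its level was 65.8, 78.4 and 65.0 CPM with negative siRNA and 55.8, 53.2 and 53.6 CPM with DNMT1 siRNA. The lowest control stood above the highest DNMT1 siRNA culture. Cdkn1b fell by 0.36 on the log2 scale (SE 0.09, 95% interval -0.57 to -0.16, FDR = 0.0350, edgeR quasi-likelihood test), which is a 1.29-fold change and short of the fold limit. The change did not rest on a single control, with -0.27 (FDR = 0.0211) without negative siRNA replicate 2 and -0.40 and -0.41 (FDR = 0.0306 and 0.0326) without replicates 1 and 3. Leaving out any DNMT1 siRNA culture kept the size, between -0.41 and -0.35, and put the FDR between 0.0926 and 0.153. With the replicate number as a replicate block, the FDR was 0.0681.

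Cdkn1c encodes p57, an imprinted CDK inhibitor expressed from the maternal allele (ENSMUSG00000037664, chromosome 7, 143458339 to 143461050). Of the 7 genes it had the most negative log2 fold change and the widest spread among the controls. Its level was 33.0, 62.3 and 27.9 CPM with negative siRNA and 24.6, 21.2 and 20.9 CPM with DNMT1 siRNA. Every control lay above every DNMT1 siRNA culture, but replicate 3 of the controls was only 3.36 CPM above replicate 1 of the DNMT1 siRNA cultures, whereas replicate 2 was 29.3 CPM above the next control. The coefficient of variation was 45.2% among the controls and 9.23% with DNMT1 siRNA. The log2 fold change was -0.89 (SE 0.28, 95% interval -1.52 to -0.26, unadjusted p = 0.0116, FDR = 0.0719, edgeR quasi-likelihood test), a 1.85-fold lower level that missed the FDR limit.

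Whether Cdkn1c was called depended on the test and on which control was present. DESeq2 called it lower, at -0.91 with FDR = 0.00272, and so did edgeR's exact test, at -0.89 with FDR = 0.0148. These tests called 3.2% and 2.98% of all genes lower. Without negative siRNA replicate 2 the log2 fold change was -0.46, with a smaller SE of 0.11 and FDR = 0.0231, and no longer passed the fold limit. Without negative siRNA replicate 3 it was -1.10 with FDR = 0.0338, past both limits, where 2.27% of all genes were called lower. Without replicate 1 it was -1.02 with FDR = 0.0592. Set against a single control at a time, the mean log2 CPM of the DNMT1 siRNA cultures was lower by a difference of -0.57 from replicate 1, -1.49 from replicate 2 and -0.33 from replicate 3. The direction was therefore the same against each control, while the size differed by over a log2 unit. Negative siRNA replicate 2 also had the highest summed fibroblast markers, 55676 CPM beside 36082 and 38250 CPM in the other controls and 27401 to 29238 CPM with DNMT1 siRNA. Among the controls it had the highest summed cardiomyocyte markers too, 2183 CPM beside 1751 and 1880 CPM, with 3412 to 4290 CPM with DNMT1 siRNA. The part of these sums in the Cdkn1c values was not tested. The kit that made the libraries does not mark strand, and 30.6% of the exon bases of Cdkn1c overlap the antisense gene Gm44732 in the newer annotation, which is absent from the files, so reads of both cannot be told apart.

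The ratio of 2 members within a library does not depend on how libraries are scaled. The log2 ratio of Cdkn1c to Cdkn1b counts was -0.99, -0.33 and -1.22 with negative siRNA and -1.18, -1.33 and -1.36 with DNMT1 siRNA, a difference of -0.44 that overlapped the controls (exact permutation test, two-sided, p = 0.2). The log2 ratio of Cdkn1c to Cdkn1a was -3.21, -2.19 and -3.76 with negative siRNA and -3.89, -4.10 and -4.15 with DNMT1 siRNA, a difference of -0.99 without overlap (exact permutation test, two-sided, p = 0.1, the smallest p that 3 against 3 allow). Adjusted over these 2 ratios, both exact permutation p-values were 0.2. A larger fall of Cdkn1c than of Cdkn1b was thus not detectable with 3 cultures per treatment. Without negative siRNA replicate 2, the differences were -0.18 and -0.56.

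**Figure D2:**
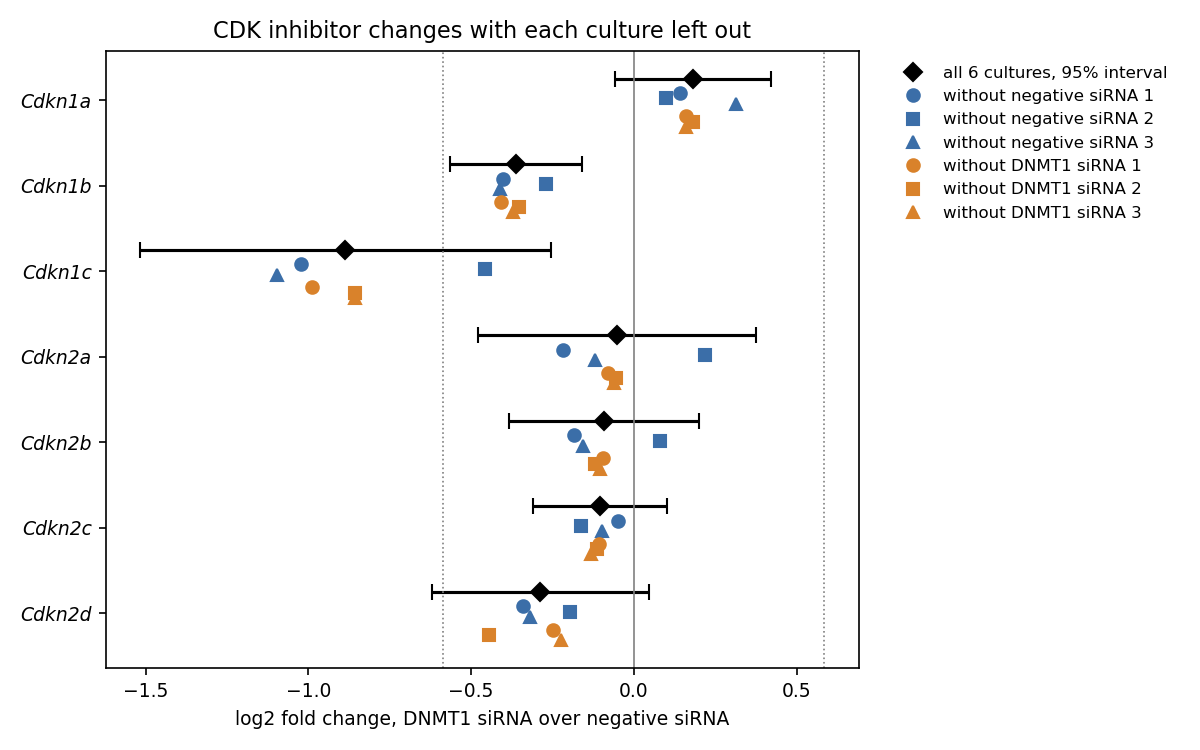
Log2 fold change of each CDK inhibitor gene (horizontal axis) with all 6 cultures, as a diamond with its 95% interval, and with each culture left out, as coloured points. Dotted lines mark the fold change limit of 1.5 in both directions. Leaving out negative siRNA replicate 2 moved Cdkn1c from -0.89 to -0.46 and put Cdkn2a and Cdkn2b at 0.22 and 0.08, above 0.

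Cdkn2a codes for p16Ink4a and, from another first exon and reading frame, for p19Arf, which stabilizes p53 by binding MDM2 (ENSMUSG00000044303, chromosome 4, 89274471 to 89294653). A count per gene cannot separate these products. The level was 28.9, 51.0 and 34.4 CPM with negative siRNA and 36.9, 36.7 and 36.5 CPM with DNMT1 siRNA. The DNMT1 siRNA cultures lay between the controls, above replicates 1 and 3 and below replicate 2. The log2 fold change was -0.05 (SE 0.19, 95% interval -0.48 to 0.37, FDR = 0.880, edgeR quasi-likelihood test), and 0.22 without negative siRNA replicate 2.

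Cdkn2b encodes p15Ink4b, which TGF-beta signaling induces, and lies 11646 bases from Cdkn2a (ENSMUSG00000073802, chromosome 4, 89306299 to 89311039). Its level was 74.0, 104 and 77.1 CPM with negative siRNA and 77.5, 82.6 and 79.6 CPM with DNMT1 siRNA. As with Cdkn2a, negative siRNA replicate 2 was the highest culture and the DNMT1 siRNA cultures lay above the other controls. The log2 fold change was -0.09 (SE 0.13, 95% interval -0.38 to 0.20, FDR = 0.673, edgeR quasi-likelihood test) and 0.08 without that control.

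Cdkn2c encodes p18Ink4c (ENSMUSG00000028551, chromosome 4, 109660876 to 109667189) and Cdkn2d encodes p19Ink4d (ENSMUSG00000096472, chromosome 9, 21288410 to 21291407). Cdkn2c was at 25.9, 22.2 and 24.4 CPM with negative siRNA and 21.9, 22.7 and 22.9 CPM with DNMT1 siRNA, overlapping, with a log2 fold change of -0.10 (SE 0.09, 95% interval -0.31 to 0.10, FDR = 0.480, edgeR quasi-likelihood test). Here negative siRNA replicate 2 was the lowest control. Cdkn2d was at 15.4, 18.6 and 15.9 CPM with negative siRNA and 12.4, 16.4 and 12.1 CPM with DNMT1 siRNA. DNMT1 siRNA replicate 2 lay within the range of the controls, and the log2 fold change was -0.29 (SE 0.15, 95% interval -0.62 to 0.05, FDR = 0.233, edgeR quasi-likelihood test). The interval of Cdkn2d reached past a 1.5-fold fall, and that of Cdkn2c did not.

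Most members, like most of all genes tested, were spread more widely among the controls. The SD of log2 CPM was larger with negative siRNA than with DNMT1 siRNA in 6 of the 7 genes, all but Cdkn2d, and in 71.8% of all genes tested. For Cdkn2a the SD of log2 CPM was 0.42 against 0.0093, for Cdkn1a 0.22 against 0.013 and for Cdkn2b 0.27 against 0.046. Negative siRNA replicate 2 was the highest control for Cdkn1b, Cdkn1c, Cdkn2a, Cdkn2b and Cdkn2d and the lowest for Cdkn1a and Cdkn2c. Over all genes tested, it was the highest control for 38.1% and the lowest for 35%.

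Per kilobase of exon, which allows genes to be compared, Cdkn1a and Cdkn2b dominated the family. In the controls Cdkn1a was highest at 90.8 ± 14.0 CPM per kilobase (SD, n = 3), followed by Cdkn2b at 61.3 ± 12.0 and Cdkn2a at 32.5 ± 9.81. Cdkn1a lay above Cdkn2b, and Cdkn2b above Cdkn2a, without overlap between the controls. Cdkn1c at 20.2 ± 9.10 overlapped both Cdkn2a above it and Cdkn1b below it at 15.3 ± 1.65. Cdkn2d followed at 10.6 ± 1.12 and Cdkn2c at 8.99 ± 0.706. With DNMT1 siRNA the order was Cdkn1a at 103 ± 0.897, Cdkn2b at 57.5 ± 1.86, Cdkn2a at 31.3 ± 0.203, Cdkn1b at 11.9 ± 0.312, Cdkn1c at 10.9 ± 1.01, Cdkn2d at 8.65 ± 1.53 and Cdkn2c at 8.37 ± 0.204 CPM per kilobase (SD, n = 3). Cdkn1b and Cdkn1c overlapped there, as did Cdkn1c and Cdkn2d and also Cdkn2d and Cdkn2c. The 3 Cip/Kip genes held 54.5%, 48.0% and 56.4% of the summed level of the family in the controls and 55.1%, 53.2% and 54.7% with DNMT1 siRNA. The share of Cdkn1c alone was 7.58%, 11.5% and 5.74% in the controls and 5.24%, 4.44% and 4.44% with DNMT1 siRNA. The summed level of all 7 genes was 214 to 266 CPM per kilobase in the controls and 230 to 234 with DNMT1 siRNA, within the range of the controls.

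**Figure D3:**
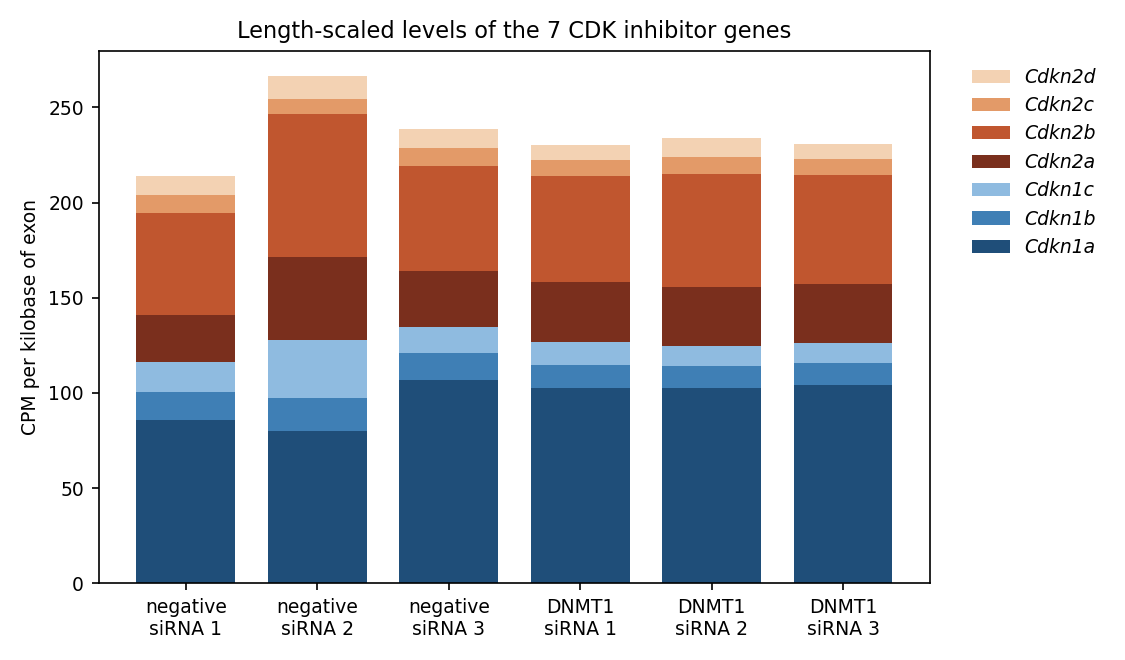
Level of the 7 CDK inhibitor genes in each culture, in CPM per kilobase of exon (vertical axis, from 0), stacked with Cip/Kip genes in blue below and INK4 genes in brown above. Negative siRNA replicate 2 had the highest total, 266 CPM per kilobase, and the 3 DNMT1 siRNA cultures lay between 230 and 234.

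The targets of the INK4 proteins did not pass the limits, and the kinases and the D cyclins differed in sign. Cdk4 had a log2 fold change of -0.24 (FDR = 0.0917, edgeR quasi-likelihood test) and Cdk6 of -0.18 (FDR = 0.435). Ccnd1, Ccnd2 and Ccnd3, the D cyclins that activate them, stood at 0.47, 0.21 and 0.31 (FDR = 0.0650, 0.182 and 0.0758). Ccnd1 was at 117, 81.1 and 121 CPM with negative siRNA and at 136, 154 and 153 CPM with DNMT1 siRNA, without overlap. Cdk4 was at 271, 251 and 222 CPM with negative siRNA and at 212, 206 and 211 CPM with DNMT1 siRNA, also without overlap. By the quasi-likelihood test 0 of these 5 genes were called.

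The targets of the Cip/Kip proteins all had small negative log2 fold changes that did not pass the test. The 7 tested genes, Cdk1, Cdk2, Ccne1, Ccne2, Ccna2, Ccnb1 and Ccnb2, had log2 fold changes of -0.22, -0.14, -0.26, -0.14, -0.03, -0.04 and -0.16, with FDR from 0.132 for Ccne1 to 0.900 for Ccnb1 (edgeR quasi-likelihood test). Ccna1, the germline cyclin A, had at most 0.151 CPM and was not tested. The signs of Ccne2, Ccna2 and Ccnb1 turned when negative siRNA replicate 1 was left out.

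**Figure D4:**
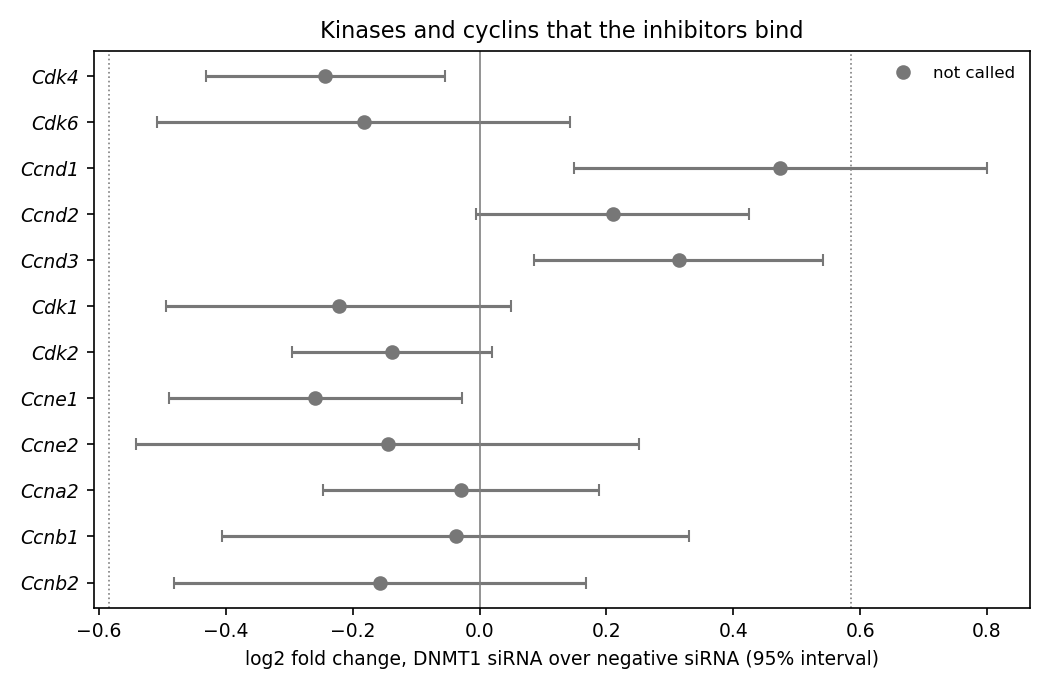
Log2 fold change with 95% interval (horizontal axis) of the kinases and cyclins that the CDK inhibitors bind, with the genes in rows. The D cyclins Ccnd1, Ccnd2 and Ccnd3 lay at 0.21 to 0.47 and the other 9 genes between -0.26 and -0.03, and none passed both limits, which dotted lines mark for the fold change.

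Of 13 pocket protein and E2F genes, which act below the kinases, 0 passed both limits. Tfdp1, the dimerization partner of E2F factors, fell by 0.42 on the log2 scale (FDR = 0.0195, edgeR quasi-likelihood test) and Rb1, the retinoblastoma gene, stood at 0.36 (FDR = 0.0844). Of 23 proliferation genes, 0 were called, 19 had a negative and 4 a positive log2 fold change, and the median was -0.09. Over all genes tested, 7839 log2 fold changes were negative and 7631 positive. Mcm6, a helicase subunit of replication, and Cdt1, which loads that helicase, fell by 0.43 and 0.57 (FDR = 0.00910 and 0.0171) without reaching the fold limit, which Cdt1 passed without negative siRNA replicate 3 (-0.68), with DESeq2 without shrinkage (-0.60), with no filter on low counts (-0.61) and with thinned counts (-0.63). Tfdp1, Rb1, Mcm6 and Cdt1 were named after their values were seen.

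Among 18 transcription regulators of CDK inhibitor genes, 1 was called, and it was lower, beside 2.23% of all genes called lower. This was Tbx2, a T-box repressor of Cdkn1a and Cdkn2a. Its level was 8.20, 11.9 and 10.6 CPM with negative siRNA and 6.30, 5.57 and 5.95 CPM with DNMT1 siRNA, and it fell by 0.78 on the log2 scale (SE 0.17, FDR = 0.0221, edgeR quasi-likelihood test). It was not called with the replicate block, nor in the fits that left out 1 of the DNMT1 siRNA cultures, where it was -0.85 to -0.74. Of 10 genes for ubiquitin ligases that degrade CDK inhibitors, 0 were called.

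Of 21 p53 targets other than Cdkn1a, 2 were called higher and 1 lower, and 17 log2 fold changes were positive and 4 negative, with a median of 0.13. Of all 15470 genes tested, 4.26% were called higher and 2.23% lower, and 7631 log2 fold changes were positive and 7839 negative. The summed level of the p53 targets was 2471, 2083 and 2886 CPM with negative siRNA. With DNMT1 siRNA it was 2799 to 2824 CPM, within the range of the controls. Btg2, an antiproliferative gene, was at 140, 128 and 145 CPM with negative siRNA and rose to 227, 221 and 221 CPM, a log2 fold change of 0.70 (SE 0.07, FDR = 0.00125, edgeR quasi-likelihood test). Perp, which encodes a membrane protein of desmosomes, rose by 0.75 (SE 0.18, FDR = 0.0349). Gadd45a, a stress gene whose product binds p21 and PCNA, fell by 0.81 (SE 0.19, FDR = 0.0287). Perp lost the call without negative siRNA replicate 2 (0.55) and in each fit that left out a DNMT1 siRNA culture (0.70 to 0.77). Gadd45a lost it without negative siRNA replicate 3 (-0.77) and without DNMT1 siRNA replicates 2 (-0.66) or 3 (-0.80).

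Around Cdkn1c, 3 genes on one side of it were called higher. Of 11 listed genes of the imprinted domain and its borders, 9 were tested, 3 were called higher and 0 lower. Of all genes tested, 4.26% were called higher and 2.23% lower. The genes of the domain were listed with earlier results of these data known. Kcnq1ot1, the long noncoding RNA that silences the domain on the paternal allele, was at 22.1, 19.7 and 25.3 CPM with negative siRNA and at 29.1, 44.7 and 38.6 CPM with DNMT1 siRNA. It rose by 0.74 on the log2 scale (SE 0.16, FDR = 0.0229, edgeR quasi-likelihood test), and every DNMT1 siRNA culture lay above the controls. Kcnq1ot1 lies within Kcnq1, and the libraries do not mark strand. The share of reads on no annotated gene was 17.5%, 14.6% and 17.1% in the controls and 24.4%, 31.5% and 32.0% with DNMT1 siRNA, and its part in this value was not tested. DNMT1 siRNA replicate 1 was the lowest of its group in both, whereas replicate 3 had the highest share and replicate 2 the highest Kcnq1ot1. Kcnq1, a potassium channel gene with the start of Kcnq1ot1 inside one of its introns, was low, at 1.37, 3.75 and 2.44 CPM with negative siRNA and 7.10, 6.04 and 6.18 CPM with DNMT1 siRNA.

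Kcnq1 rose by 1.36 on the log2 scale (SE 0.32, FDR = 0.0319, edgeR quasi-likelihood test). It shares 121 exon bases with Kcnq1ot1, which is transcribed from the other strand, so their reads cannot be fully told apart. Tssc4 rose by 0.65 (SE 0.11, FDR = 0.00937). Cd81 at 0.25 (FDR = 0.106) and Tspan32 at 1.17 (FDR = 0.0971), both tetraspanin genes, lay above the controls in every culture without passing the test. Tspan32 was called higher by edgeR's exact test (FDR = 0.0499987, just under the limit), hence also in the combined call, and without negative siRNA replicate 3 (1.60, FDR = 0.0383). The calls of Kcnq1ot1, Tssc4 and Kcnq1 depended on single cultures. Kcnq1ot1 lost its call without DNMT1 siRNA replicates 2 (0.59) or 3 (0.70), Tssc4 without negative siRNA replicate 2 (0.57) or DNMT1 siRNA replicates 1 (0.59) or 2 (0.63), and Kcnq1 without negative siRNA replicate 3 (1.35) or any of the DNMT1 siRNA cultures (1.26 to 1.40). All kept their direction in these fits.

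On the other side of Cdkn1c, Cars, which encodes cysteinyl-tRNA synthetase, fell by 0.52 (SE 0.07, FDR = 0.00338, edgeR quasi-likelihood test) without reaching the fold limit. Slc22a18 at -0.03 (SE 0.40, FDR = 0.972), a transporter gene imprinted like Cdkn1c, Nap1l4 at -0.11 (FDR = 0.290) and Osbpl5 at 0.09 (FDR = 0.582) did not pass. Phlda2 and Ascl2, which are imprinted in the placenta, had at most 0.134 and 0.286 CPM and were not tested. The counts do not separate alleles, so imprinting itself was not measured.

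**Figure D5:**
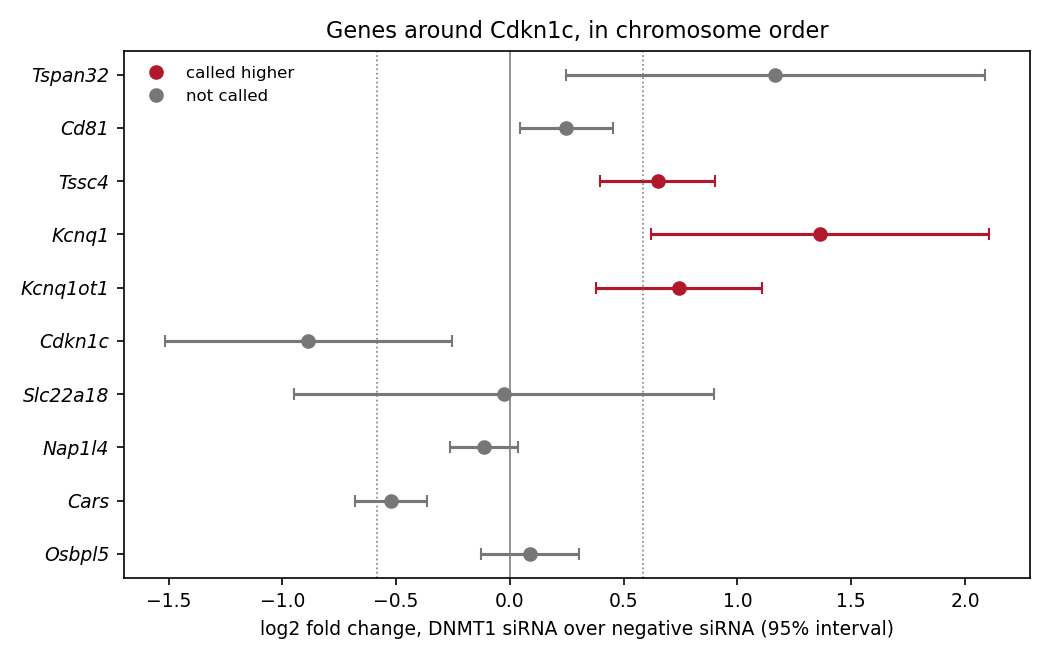
Log2 fold change with 95% interval (horizontal axis) of Cdkn1c and the tested genes around it, in chromosome order from top to bottom. Tssc4, Kcnq1 and Kcnq1ot1 were called higher, Cdkn1c lay at -0.89 and Cars at -0.52, and dotted lines mark the fold limit.

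The nearest tested protein-coding genes on both sides of the members were 12 in all, besides the members themselves. Of these, 1 was called higher, Kcnq1, which ends 31297 bases from Cdkn1c, and 1 lower, Elavl2, an RNA-binding protein gene 1939724 bases from Cdkn2b, which fell by 0.82 (SE 0.15, FDR = 0.0132, edgeR quasi-likelihood test) and was not called in the fits that left out a DNMT1 siRNA culture (-0.88 to -0.78). The median log2 fold change of the 12 was -0.12. Of all genes tested, 4.26% were called higher and 2.23% lower.

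Cdkn1c had the largest absolute log2 fold change of the 7 genes. The genes whose log2 CPM followed it most closely over the 6 libraries were Chst1, Gm10275, Nsmce3, Rps16-ps2 and Gng5. Pearson's r of log2 CPM over the 6 libraries was 0.997 for Chst1, a sulfotransferase gene, and 0.994 for Gng5, a G protein subunit gene, the first and the last of the 5 among 12738 genes compared. Such values were not particular to Cdkn1c. For the other members, r with the closest gene ranged from 0.987 for Cdkn2d to 0.999 for Cdkn1b. Gm10275 and Rps16-ps2 are pseudogenes whose reads may come from their parent genes. These values describe 6 libraries, among them negative siRNA replicate 2, which stood apart.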

How the data were processed

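RNA-Seq counts of 6 libraries, 3 negative siRNA and 3 DNMT1 siRNA cultures, were used. The authors checked the reads with FastQC, mapped them to mm10 with TopHat2, counted them per gene of Ensembl release 79 (GRCm38) with HTSeq; the deposited values are these raw counts, not normalized. The strand setting of the counter and the tool versions are not given in the sources used here. Counts given to no gene were kept out of library sizes.

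The analysis used R 4.3.3, edgeR 4.0.16 and DESeq2 1.42.0. Genes were tested by the quasi-likelihood F test of edgeR with TMM normalization, filterByExpr (minimum count 10, minimum total 15) and Benjamini-Hochberg adjustment over 15470 genes, with treatment as the only term. Calls needed an FDR below 0.05 and a fold change over 1.5 in either direction, the limits of the study. SEs were derived from the log2 fold change and the F statistic. Exon lengths and positions came from GENCODE M21 (GRCm38), which held 42548 of the 43629 genes. Log2 CPM used a prior count of 2. The fits were tested on simulated counts. At an FDR below 0.05, the quasi-likelihood test recovered 55.2% of simulated 1.5-fold changes, 74.6% of 2-fold and 90.9% of 4-fold changes. A gene that was not called may therefore have changed. Library pairs within a treatment differed beyond sampling noise. Same-numbered cultures did not deviate together (correlations of 0.0064, -0.021 and 0.027), so replicate numbers were not taken as pairs.

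The members and gene lists were chosen with earlier results of these data known. Named genes were all members, all genes of the lists of INK4 targets, of CDK1/2 with cyclins and of the Cdkn1c domain, up to 5 called genes of each other list, the nearest neighbours, and the 5 genes most correlated with the member of largest change. Alternatives were DESeq2, edgeR's exact test, the combined call, RLE normalization, no filter, a replicate block, thinned counts, no fold limit, and leaving out each culture.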

Additional observations from a re-analysis of the deposited data

Results flagged for a closer look

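The share of uniquely placed reads that fell on no annotated gene averaged 16.4% ± 1.58 (SD, n = 3) in the controls and 29.3% ± 4.23 (SD, n = 3) after DNMT1 knockdown, 12.9 percentage points higher. This share was set beside Kcnq1ot1 above but entered no test there. In it, all DNMT1 siRNA libraries lay above all negative siRNA libraries (exact permutation test, two-sided, p = 0.1, the smallest p that 3 against 3 allow). These reads were left out of the library sizes behind the CPM of the CDK inhibitors, and their part in the values was not tested.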

How the results depend on the processing

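Of the 7 members, Cdkn1a, Cdkn1b, Cdkn1c, Cdkn2c and Cdkn2d kept the sign of their log2 fold change in all 13 refits. The count of CDK inhibitors called lower went from 0 to 1 with DESeq2, with and without shrinkage, with the exact test, with the combined call and with no filter on low counts, each time Cdkn1c, and with no limit on fold change, then Cdkn1b; it was 0 to 1 when a culture was left out. Cdkn1c was called at -0.91 by DESeq2, at -0.76 with shrunken fold changes, at -0.89 by the exact test and at -0.92 with no filter, and ranged from -1.10 to -0.46 with a culture left out; the cause was not tested. Leaving out a culture gave -0.22 to 0.22 for Cdkn2a and -0.18 to 0.081 for Cdkn2b, turning positive without negative siRNA replicate 2. The same refits gave -0.28 to 0.064 for Ccne2, -0.10 to 0.063 for Ccna2, -0.13 to 0.15 for Ccnb1, -0.28 to 0.19 for Slc22a18 and -0.0091 to 0.17 for Osbpl5, all small values that changed sign. With the replicate block the log2 fold changes were -0.36 for Cdkn1b (FDR = 0.0681) and -0.80 for Cdkn1c (FDR = 0.0823, edgeR quasi-likelihood test), Tbx2 and Gadd45a were not called, and no CDK inhibitor was called. Over all genes, 994 were called higher and 701 lower with no filter, and 1054 and 874 with no limit on fold change, against 659 and 345. With a culture left out the counts were 255 to 823 and 112 to 472. They fell by over 1.5 times when any of the DNMT1 siRNA cultures was left out. When a negative siRNA culture was left out, which also leaves fewer samples, they were 630 to 823 and 345 to 472. The cause of this difference was not tested. RLE normalization, DESeq2, the exact test, the replicate block and thinning to the smallest library kept these counts within 1.5 times. The ratio of Cdkn1c to Cdkn1a or Cdkn1b kept its negative difference in every refit, and with 3 cultures per treatment no exact test could pass 0.05.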
